A study of Rattus norvegicus with 13 samples.

Results

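The comparison is between whole kidneys of rats irradiated 35 days earlier and kidneys of unirradiated rats of the same age, read across mature miRNAs. It uses 8 of the 13 small RNA libraries of the series, chosen by their labelled group: 4 control and 4 irradiated. Of 1121 deposited features, the 460 rat mature miRNAs enter it. All animals were female WAG/RijCmcr rats, an inbred Wistar strain, 11 to 12 weeks old and about 155 g. Irradiated rats received 13 Gy of X-rays (320 kVp, given at 1.75 Gy a minute) with a hind leg kept out of the beam, which spares bone marrow there. After irradiation they had saline (40 ml per kg per day, days 3 to 7) and enrofloxacin, an antibiotic (10 mg per kg per day, up to day 14). The labels do not say whether controls (0 Gy) had the same care. The remaining 5 rats were irradiated in the same way and from day 7 were given 24 mg per m2 per day of lisinopril, which blocks angiotensin-converting enzyme, in their drinking water. Neither group compared here received it, but those 5 libraries enter the fit and help set its low-count filter, scaling and estimate of the spread.

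MicroRNAs are short RNAs that lower the output of messenger RNAs. They pair with them mainly through the seed, bases 2 to 8 from the 5′ end, so miRNAs with the same seed are read as a family. A hairpin precursor yields a 5p and a 3p arm, and neighbouring hairpins are often cut from a shared transcript. The tumour suppressor p53, which DNA damage activates, switches on the miR-34 genes directly.

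Rat mature counts per library ranged from 1194175 to 9426318 in controls and from 4885082 to 6786492 in irradiated kidneys. Control library 2 was the shallowest of all, with 37 rat miRNAs at 0 against 0 to 3 in the other 7, and entries of other species made up 29% of its mature counts, against 10.8% to 14.6% elsewhere. Fold changes and list medians are therefore given with it and without it. Levels are in CPM, counts scaled to a common library size; 3 counts, taken as the lowest detectable level, were 3.19 CPM in control library 2 and 0.289 to 0.561 CPM in the other 7, for counting error only. The labelled tissue was borne out by its markers: all 18 entries of the kidney list (such as miR-10a, miR-192, miR-204 and miR-30a) were above the low-count filter and summed to 351238 to 742911 CPM. Of markers of other organs, the liver miRNA miR-122, the neural miR-124 and the muscle miRNAs miR-206 and miR-208a are not among the 460 entries. Others were detected in all 8 libraries as sums: 4 striated muscle entries at 209 to 571 CPM, 2 neural entries of miR-9a at 197 to 436 CPM, and the endocrine pair miR-375-3p and miR-7a-5p at 1523 to 2198 CPM. In whole kidney, fewer cells of a type and less RNA per cell cannot be told apart.

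The called miRNAs and the relatives they are read with are shown first, because the seed decides which belong together and because a pair of them are mirror images. Mature sequences are from RefSeq (build GRCr8, a later assembly than the rn4 build to which reads were aligned), 5′ to 3′, with the seed in capitals. Sequences were found for 415 of the 460 names.
miR-34a-5p: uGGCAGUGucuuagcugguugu
miR-34c-5p: aGGCAGUGuaguuagcugauugc
miR-34b-5p: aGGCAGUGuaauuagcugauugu
miR-449a-5p: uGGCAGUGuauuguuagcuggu
miR-34b-3p: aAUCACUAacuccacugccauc
miR-183-5p: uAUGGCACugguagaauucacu
miR-96-5p: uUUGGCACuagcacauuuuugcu
miR-182: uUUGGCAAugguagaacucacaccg
miR-3553: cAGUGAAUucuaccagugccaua
miR-541-5p: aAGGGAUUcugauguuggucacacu
miR-411-5p: uAGUAGACcguauagcguacg
miR-134-5p: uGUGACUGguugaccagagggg
miR-300-3p: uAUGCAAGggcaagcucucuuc

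In GRCr8, miR-34a-5p lies at chr5:165815971-165815992 on the plus strand, inside the span of the annotated gene LOC103692514. miR-183-5p lies at chr4:59756106-59756127 on the minus strand and miR-3553 at chr4:59756105-59756127 on the plus strand, outside any other annotated gene. The whole of miR-183-5p is the reverse complement of 22 bases of miR-3553. miR-541-5p (chr6:134578434-134578458), miR-134-5p (chr6:134570320-134570341) and miR-300-3p (chr6:134559968-134559989) lie on the plus strand within the span of the same gene, LOC120103623. miR-411-5p lies upstream of them at chr6:134544604-134544624.

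In irradiated kidneys miR-34a-5p rose 5.82-fold and its seed partner miR-34c-5p rose 1.49-fold, while miR-183-5p with its mirror entry miR-3553, miR-541-5p, miR-411-5p and miR-802-5p fell. These were 2 higher (0.477%) and 5 lower (1.19%) of 419 miRNAs tested, at an adjusted p under 0.05 by the quasi-likelihood test of edgeR, Benjamini-Hochberg adjusted across all 419. With control library 2 left out, 1 was higher (0.234%) and 6 were lower (1.41%) of 427 tested: miR-34a-5p, and miR-541-5p, miR-300-3p, miR-183-5p, miR-3553, miR-802-5p and miR-134-5p. Thus 5 of the 7 calls remained, miR-34c-5p and miR-411-5p were lost, and miR-134-5p and miR-300-3p were gained. Fitted on the 8 libraries alone, without the lisinopril group, only miR-34a-5p was called of the 388 tested. The other 6 then had adjusted p-values of 0.0833 to 0.0936, with log2 fold changes of 0.56 for miR-34c-5p and -1.16 to -0.58 for the 5 lower ones.

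**Figure D1:**
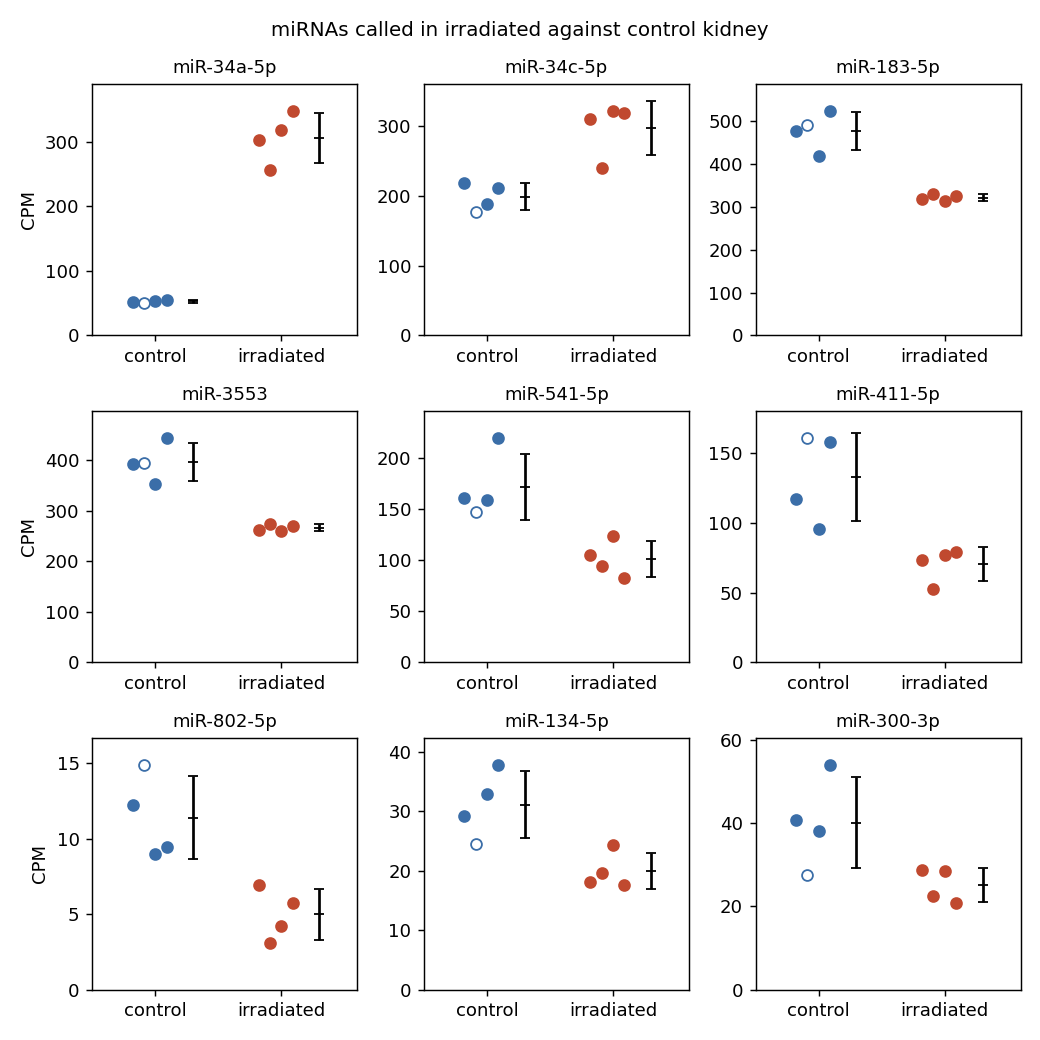
CPM (vertical axis, from 0) of each miRNA called with or without control library 2, in each control (blue) and irradiated (red) kidney, with the mean ± SD of all 4 libraries beside them in black; the open circle is control library 2. The groups do not overlap in 8 of the 9 panels; in miR-300-3p, control library 2 (27.7 CPM) lies below irradiated libraries 1 and 3 (28.8 and 28.5 CPM).

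miR-34a-5p is the family's main p53-induced member and targets messenger RNAs of the cell cycle and of survival. It was at 51.6, 50.0, 53.7 and 54.4 CPM in control libraries 1 to 4 and at 303, 256, 318 and 348 CPM in irradiated libraries 1 to 4. The shallow control stood with the other controls, and the lowest irradiated kidney was far above the highest control. On the log2 scale the rise was 2.54 (SE 0.149, adjusted p = 1.44e-08), and 2.53 (SE 0.168, adjusted p = 2.32e-07) without control library 2, a 5.76-fold difference. An exact two-sided permutation test gave p = 0.0286 both for 4 against 4 and for 3 controls against 4, the smallest value either arrangement allows. miR-34a-5p was called in all 27 fits made, with log2 fold changes from 2.46 to 2.77.

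miR-34c-5p comes from the separate miR-34b/c gene, which p53 also induces. It was at 218, 178, 189 and 211 CPM in controls and at 311, 240, 323 and 319 CPM in irradiated kidneys. Irradiated library 2 was the low one of its group, yet still above all 4 controls. The rise of 0.58 on the log2 scale (SE 0.126, adjusted p = 0.0216) became 0.53 (SE 0.135, adjusted p = 0.0695) when control library 2, the lowest control, was left out.

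The other entries with this seed, or from these hairpins, did not pass. miR-34b-3p was at 5.79, 4.25, 5.40 and 5.19 CPM in controls and 8.04, 8.06, 10.0 and 7.24 CPM in irradiated kidneys, without overlap (log2 fold change 0.65, adjusted p = 0.0709; 0.61 and 0.123 without control library 2). Its seed is that of miR-34c-3p, which was at 1.06 to 3.66 CPM in controls and 3.72 to 6.84 CPM in irradiated kidneys (0.82, adjusted p = 0.0916; 0.74 and 0.147 without control library 2). miR-34b-5p stood at 0 counts in control library 2, which at that depth allows up to 3.19 CPM, so its value (0.52, adjusted p = 0.386) is better read without that library (0.37, adjusted p = 0.472). miR-449a-5p, made from another gene that is active in ciliated cells, was at 1.06 to 2.32 and 1.53 to 2.86 CPM (0.27, adjusted p = 0.688; 0.25 and 0.762). Of the 6 tested members of the miR-34 and miR-449 list 2 rose, against 2 of all 419 tested (0.477%). All 6 had a positive log2 fold change, with a median of 0.61, against 217 of all 419 and a median of 0.02. Without control library 2 the list had 1 call, against 1 higher of all 427 (0.234%), and a median of 0.57.

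Among the miRNAs that fell, miR-183-5p belongs to a cluster of 3 hairpins, miR-183, miR-96 and miR-182, best known from sensory organs and cut from a common transcript. It was at 478, 491, 418 and 525 CPM in controls and 318, 331, 313 and 326 CPM in irradiated kidneys. The irradiated libraries lay within a narrow band below every control. It fell by 0.57 on the log2 scale (SE 0.113, adjusted p = 0.0216), and by 0.55 without control library 2 (SE 0.124, adjusted p = 0.0467).

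The cluster partners miR-96-5p and miR-182 share most of the miR-183-5p seed and did not pass. miR-182 was at 8048, 8097, 7205 and 8694 CPM in controls and 5199, 5196, 4706 and 6399 CPM in irradiated kidneys, also without overlap (-0.58, adjusted p = 0.0709; -0.57 and 0.127 without control library 2). miR-96-5p was at 21.7 to 37.2 and 15.1 to 23.9 CPM, where irradiated library 4 overlapped the lowest control (-0.61, adjusted p = 0.0916; -0.49 and 0.186 without control library 2). The other arm, miR-183-3p, was at 5.67 to 9.16 and 3.37 to 7.57 CPM (-0.33, adjusted p = 0.47; -0.29 and 0.585). The median of the 4 was -0.57 with all libraries and -0.52 without control library 2.

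miR-3553 repeats the miR-183-5p values: it held 0.797 to 0.845 of the miR-183-5p count in every library of the series, at 352 to 444 CPM in controls and 259 to 274 CPM in irradiated kidneys (log2 fold change -0.57, adjusted p = 0.0216). It was not alone. Among the 415 names with a sequence, 35 pairs were reverse complements over at least 16 bases, and in 16 of these the count ratio varied by at most 1.5 times over the 13 libraries. The pairs include miR-210-3p with miR-3574 (0.593 to 0.731 of its count) and let-7d-5p with miR-3596b (0.874 to 0.93). Strand was not stated in the sources used here, so reads of such pairs cannot be told apart and their calls are uncertain. When the later-numbered name of each pair was left out, 31 names in all, 2 were higher and 4 lower of 392, all 6 of them among the 7 calls. Leaving out control library 2 as well left 1 higher, miR-34a-5p, and 1 lower, miR-541-5p, of 399.

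miR-541-5p, miR-411-5p, miR-134-5p and miR-300-3p all come from the imprinted Dlk1-Dio3 region, whose many miRNAs are expressed from the maternal chromosome, mostly in embryo, placenta and brain. miR-541-5p was at 161, 147, 159 and 220 CPM in controls and 105, 94.3, 124.2 and 82.2 CPM in irradiated kidneys. Here control library 2 was the lowest control and control library 4 the highest. The difference was -0.76 on the log2 scale (SE 0.159, adjusted p = 0.0216) and -0.82 (SE 0.164, adjusted p = 0.0403) without control library 2, and it passed in 20 of 27 fits, more than any other miRNA except miR-34a-5p.

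miR-411-5p was at 117, 161, 95.6 and 157 CPM in controls and 73.5, 52.4, 76.9 and 78.8 CPM in irradiated kidneys, so that control library 2 was its highest control. Its log2 fold change went from -0.91 (SE 0.195, adjusted p = 0.0216) to -0.81 (SE 0.2, adjusted p = 0.068) without that library. The opposite held for 2 neighbours whose control library 2 was the lowest control. miR-134-5p, known from neuronal dendrites, was at 29.2, 24.5, 32.9 and 37.7 CPM in controls and 18.1, 19.6, 24.3 and 17.5 CPM in irradiated kidneys (-0.66, adjusted p = 0.0709; -0.74 and 0.0467 without it). miR-300-3p was at 40.8, 27.7, 38.2 and 54.0 against 28.8, 22.5, 28.5 and 20.9 CPM (-0.70, adjusted p = 0.0709; -0.82 and 0.0467 without it).

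Of the 43 listed entries of this region 32 passed the low-count filter, and most were faint: 24 of them lay under 10 CPM on average. The list may not hold every miRNA of the region, and the counts below are for the list only. miR-341 and miR-1247-5p are not in it. miR-1247-5p had a log2 fold change of 0.93 with and without control library 2 (adjusted p = 0.0709 and 0.127). Of the 32, 2 fell, against 5 of 419 over all tested (1.19%). Of their log2 fold changes 30 were below 0 (median -0.61), against 202 of 419 (median 0.02) over all tested. Leaving out control library 2 gave 3 lower of 35, against 6 of 427 over all tested (1.41%). The list then had a median of -0.61 and 3 positive values. Their summed level was 496 to 763 CPM in controls and 316 to 409 CPM in irradiated kidneys, without overlap, and 244 CPM of the control library 2 sum came from miR-770-5p alone. Both positive entries were miR-127-3p, at 16.4, 17.0, 17.4 and 16.5 against 19.4, 29.2, 19.7 and 21.6 CPM (0.42, adjusted p = 0.166; 0.43 and 0.234 without control library 2), and miR-434-3p (0.37, adjusted p = 0.431; 0.43 and 0.428). Both are made antisense to the imprinted gene Rtl1, and so is miR-136-3p, which had a negative value (-0.74, adjusted p = 0.233; -0.64 and 0.338).

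miR-802-5p, a miRNA of liver and kidney epithelium linked to glucose metabolism, was at 12.2, 14.9, 8.97 and 9.44 CPM in controls and 6.92, 3.10, 4.19 and 5.73 CPM in irradiated kidneys. The groups were separate, but the level is low. The lowest value, 3.10 CPM in irradiated library 2, is about what 3 counts are in the shallow control library 2. In irradiated library 2 itself 3 counts are 0.372 CPM. It fell by 1.14 on the log2 scale (SE 0.245, adjusted p = 0.0216), and the change was -1.05 (SE 0.244, adjusted p = 0.0467) without control library 2. The other arm, miR-802-3p, had values of 5.30 to 10.6 and 1.74 to 5.05 CPM (-1.02, adjusted p = 0.0822; -0.89 and 0.147 without control library 2), again without overlap. Both arms of a hairpin were tested for 120 hairpins, and in 87 of these the arms had the same sign.

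The calls other than miR-34a-5p depended on single libraries, as well as on the lisinopril group given above. Dropping control library 4 left 1 higher and 0 lower, dropping irradiated library 1 or 3 left 1 and 1, and dropping irradiated library 2 left 2 and 2. The fit lacking control library 3 had 5 higher and 6 lower. Irradiated library 4 stood apart most: with it left out, 35 were higher (8.16%) and 25 lower (5.83%) of 429 tested, and all 7 calls remained. With control library 2 and irradiated library 4 both out, 22 were higher and 13 lower, again with all 7.

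Control library 2 moved few fold changes, but those it moved it moved far. Between the fits with and without it, 5 of 419 miRNAs shifted by more than 0.5 on the log2 scale, and the median shift was 0.05. miR-770-5p was at 244 CPM in that library and at 2.70 to 4.64 CPM in the other 3 controls, so its log2 fold change of -4.30 (adjusted p = 0.0916) became -0.29 (adjusted p = 0.858). miR-3473 was at 299 CPM against 13.3 to 20.1 CPM and went from -2.53 to -0.18. The others were miR-140-5p, at 370 CPM against 51.9 to 67.7 (-1.21 to -0.10), and the seed partners miR-19a-3p and miR-19b-3p of the miR-17-92 cluster, at 104 and 698 CPM against 17.8 to 36.7 and 202 to 347 (-1.18 to -0.44 and -0.98 to -0.46). None of these passed in either fit.

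The same library raised the most abundant kidney miRNA, miR-10a-5p, a Hox-locus miRNA. It was at 380525, 562055, 288354 and 354259 CPM in controls and 266412, 254040, 251361 and 320318 CPM in irradiated kidneys. The groups overlapped through control library 3. Its log2 fold change was -0.54 (adjusted p = 0.0931) and -0.32 (adjusted p = 0.246) without control library 2. The next most abundant, miR-30a-5p (-0.41, adjusted p = 0.143; -0.35 and 0.303 without that library), miR-192-5p (-0.56, adjusted p = 0.134; -0.60 and 0.187) and miR-22-3p (0.14, adjusted p = 0.544; 0.15 and 0.592), did not pass either. Without irradiated library 4 instead, miR-10a-5p (adjusted p = 0.0444), miR-30a-5p (0.0352) and miR-192-5p (0.0361) passed as lower.

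The 10 miRNAs with the smallest p were taken among those with a positive log2 fold change and a mean of at least 10 CPM. Of these 10, 6 had groups without overlap, which the choice by p favours. Besides miR-34a-5p and miR-34c-5p these were the hypoxia-induced miR-210-3p with its mirror entry miR-3574, miR-214-3p of fibroblasts, and miR-1247-5p. miR-210-3p was at 170, 174, 176 and 190 CPM in controls and 241, 355, 223.2 and 220.7 CPM in irradiated kidneys (0.55, adjusted p = 0.0709; 0.54 and 0.127 without control library 2). For miR-214-3p the values were 42.5, 47.9, 57.9 and 49.2 against 65.8, 148, 75.8 and 64.5 CPM (0.84, adjusted p = 0.0709; 0.83 and 0.127). Irradiated library 2 was the highest of all 8 in both. miR-199a-3p and miR-199a-5p, which share the fibroblast and smooth muscle list with miR-214-3p, overlapped between groups. Their log2 fold changes were -0.012 and -0.0085 (adjusted p = 0.986 for both), and 0.052 and 0.011 without control library 2 (0.866 and 0.956). Of the 7 on that list, 3 log2 fold changes were above 0 and 4 below. Over all tested, 11 miRNAs lay higher in every irradiated than in every control library (2.63%) and 19 lower (4.53%).

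These higher values went with base composition. Over the 377 tested miRNAs with a sequence, Spearman's rho between GC content and log2 fold change was 0.54, 0.56 without control library 2 and 0.61 without irradiated library 4; the points share libraries and are not independent. The median log2 fold change was -0.22 in the 120 miRNAs of lowest GC content (at most 41.7% GC), 0.02 in the 131 in between and 0.26 in the remainder (at least 52.2% GC). In each library the GC gap is the median deviation of the high-GC set from the 8-library mean of each miRNA, minus that of the low-GC set, in log2 units. It was -0.60, -0.39, -0.05 and -0.09 in control libraries 1 to 4 and 0.07, 0.92, 0.30 and -0.31 in irradiated libraries 1 to 4. Irradiated library 2 had the largest gap, and irradiated library 4 lay among the controls.

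miR-210-3p and miR-214-3p have 63.6% and 61.9% GC, miR-34a-5p 50% and miR-183-5p 40.9%. With the GC trend of each library taken out by an offset, chosen after the data were seen, 3 miRNAs were higher and 6 lower of 377. Higher were miR-34a-5p (log2 fold change 2.46), miR-34c-5p (0.54) and miR-34b-3p (0.68). Lower were miR-409b, miR-134-5p, miR-300-3p, miR-541-5p, miR-411-5p and miR-3553, while miR-183-5p itself was at -0.41 with an adjusted p = 0.0903. Like miR-3553, miR-409b is a mirror entry, so its call is uncertain. It is the reverse complement of miR-409a-3p of the Dlk1-Dio3 list over 20 bases, at 4.36 to 11.48 times its count. miR-210-3p was at 0.22 (adjusted p = 0.344) and miR-214-3p at 0.50 (adjusted p = 0.146) in that fit, against 0.55 and 0.84 without the offset. Without control library 2 this fit gave 1 higher, miR-34a-5p, and 4 lower: miR-409b, miR-134-5p, miR-300-3p and miR-541-5p. miR-802-5p had no sequence and was not in these fits.

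**Figure D2:**
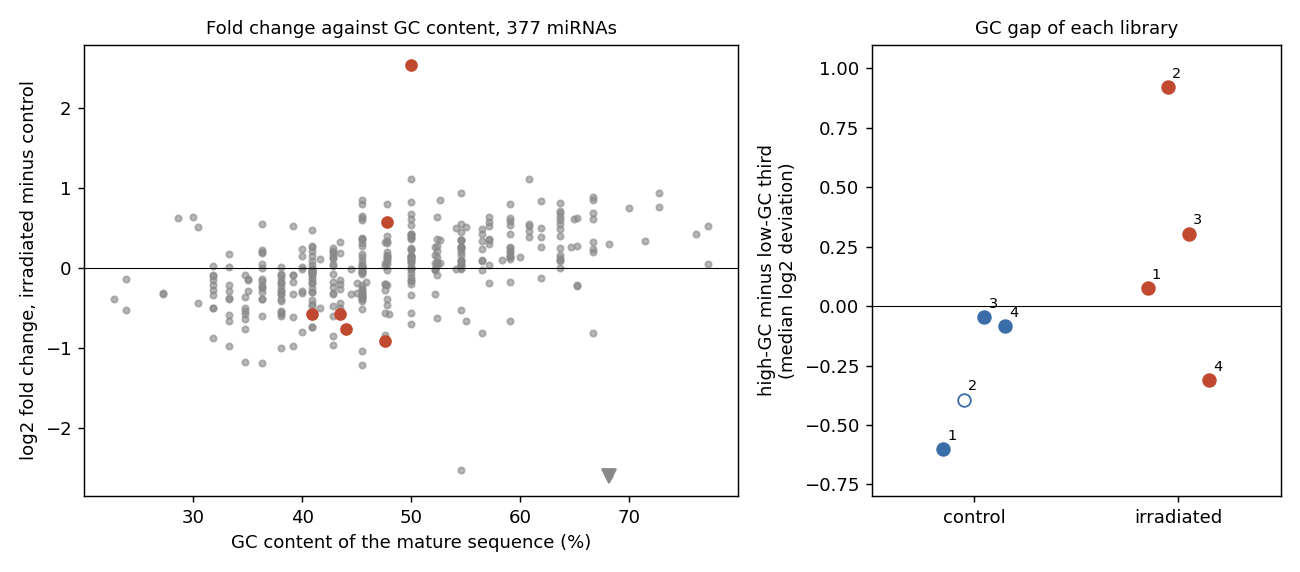
Left, log2 fold change of irradiated minus control (vertical axis) against GC content of the mature sequence in percent (horizontal axis) for 377 tested miRNAs, called ones in red; the triangle is miR-770-5p, drawn at the edge from its value of -4.30. Right, GC gap of each library in log2 units, with control library 2 open: from -0.60 to -0.05 in controls and from -0.31 to 0.92 in irradiated kidneys.

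Leukocyte miRNAs were mostly lower but none passed. miR-223-3p of neutrophils was at 54.9, 45.7, 40.3 and 47.9 CPM in controls and 28.8, 26.7, 32.1 and 36.7 CPM in irradiated kidneys, without overlap (-0.61, adjusted p = 0.065; -0.62 and 0.0897 without control library 2). miR-146a-5p, a brake on NF-kB signalling, was at 804 to 1403 against 553 to 822 CPM (-0.74, adjusted p = 0.105; -0.71 and 0.211). miR-150-5p of lymphocytes was at 378 to 734 against 441 to 1100 CPM, in the other direction (0.66, adjusted p = 0.291; 0.61 and 0.41). Log2 fold changes were below 0 in 8 of 12 leukocyte entries, and their median was -0.50, or -0.40 without control library 2 and -0.31 with the GC offset. The 4 entries above 0 were both arms of miR-150 and both arms of miR-342 (0.13 for miR-342-5p and 0.27 for miR-342-3p). Without irradiated library 4 the list had 2 lower calls, where 25 of 429 were lower over all tested (5.83%). The 11 defining leukocyte entries summed to 1920 to 2371 CPM in controls and 1727 to 2052 CPM in irradiated kidneys.

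Red cell miRNAs varied within both groups. miR-486 was at 889 to 1979 CPM in controls and at 3952, 1650, 787 and 1736 CPM in irradiated kidneys, and miR-451-5p at 15.5 to 101 and 2.23 to 219 CPM. Irradiated library 1 was the highest in both and irradiated library 3 the lowest. All 4 erythroid entries had positive log2 fold changes (median 0.53; 0.34 without control library 2), and 0 were called. The direction of 2 of them rested on irradiated library 1: without it miR-486 was at -0.00057 and miR-144-3p at -0.089, and limma-voom with all libraries put miR-144-3p at -1.01. Endothelial entries (6, median 0.03; 0.06 without control library 2), such as miR-126a-3p, had 0 calls, and so had those of fibroblasts and smooth muscle (7, median -0.01; 0.11). So did the muscle list (4 tested, median -0.50; -0.36), where miR-499-5p was at 506 CPM in control library 2 and at 231 to 273 CPM in the other 3 controls. Without irradiated library 4, 8.16% of all tested were higher and 5.83% lower. The fibroblast and smooth muscle list then had 1 higher and 1 lower, and the muscle list 1 lower.

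In the lists that follow, the shares to read counts against are those of all tested miRNAs, 0.477% higher and 1.19% lower. Medians are given first with all libraries and then without control library 2. Lists that name kidney epithelium had 0 calls: the kidney-enriched list (16 tested, -0.04 and -0.05), the miR-30 family (11, 0.06 and -0.0036) and the miR-200 family of epithelial identity (8, 0.03 and 0.03). Without irradiated library 4, where 8.16% of all tested were higher and 5.83% lower, the kidney-enriched list had 1 higher and 2 lower, miR-30 had 2 lower and miR-200 had 1 lower. In the miR-200 family, miR-141-3p was at 428 to 704 CPM in controls and at 320, 299, 293 and 767 CPM in irradiated libraries 1 to 4, so that irradiated library 4 was above every control (-0.45, adjusted p = 0.394; -0.34 and 0.597 without control library 2; -0.90 and 0.0318 without irradiated library 4). Fibrosis-linked miRNAs (9, -0.01 and -0.04) and the collagen-directed miR-29 family (6, 0.00058 and -0.0051) had 0 calls, against 1 higher and 2 lower, and 1 lower, without irradiated library 4. Of the fibrosis-linked, miR-21-5p was at 11741 to 20224 against 6654 to 16087 CPM (-0.60, adjusted p = 0.143; -0.52 and 0.303 without control library 2; -0.86 and 0.0229 without irradiated library 4). p53-linked miRNAs outside the miR-34 family had 0 calls (15, 0.02 and -0.02), and 2 lower without irradiated library 4. miRNAs directed at DNA damage genes had 0 calls as well (11, -0.20 and -0.13), and 3 lower with a median of -0.33 without that library.

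The families and clusters without a tie to a role above also had 0 calls: let-7 (14, 0.24 and 0.26), miR-15/16 (12, -0.07 and -0.10), miR-17-92 (18, 0.09 and 0.10) and miR-181 (9, 0.06 and -0.0050). The same held for miR-23/27/24 (9, -0.15 and -0.06), miR-99, miR-100 and miR-125 (10, 0.08 and 0.17), X-linked miR-322 (8, -0.01 and 0.05) and the Clcn5-hosted cluster (7, 0.23 and 0.23). Angiotensin-linked miRNAs (10, -0.03 and -0.03) and the liver, neural and endocrine list (6, -0.03 and 0.0024) had 0 calls too. The metabolic list had 1 call of 9, miR-802-5p (0.07 and 0.05), and the hypoxia list 0 of 2 (0.52 and 0.48, but 0.20 with the GC offset). Without irradiated library 4, where 8.16% of all tested were higher and 5.83% lower, let-7 had 2 higher and angiotensin-linked miRNAs 2 lower. The miR-17-92 and metabolic lists then had 1 higher and 1 lower each. The miR-15/16, X-linked miR-322, Clcn5-hosted and hypoxia lists had 1 higher each, and the other lists of this paragraph 0. Leaving out control library 2 turned the sign of the medians of the miR-30, miR-181, miR-29, X-linked miR-322 and p53-linked lists, of the liver, neural and endocrine list, and of the fibroblast and smooth muscle list, which then lay between -0.02 and 0.11.

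**Figure D3:**
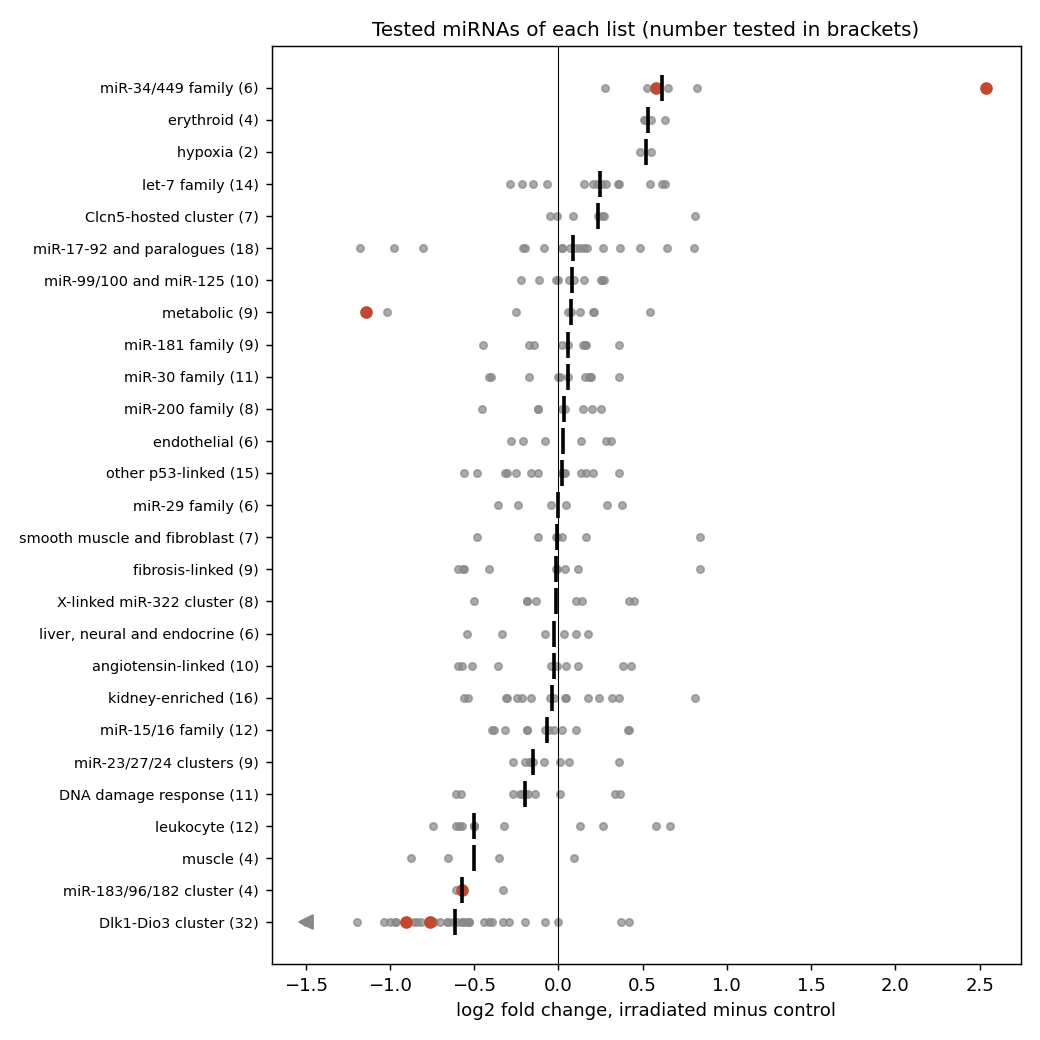
Log2 fold change of irradiated minus control (horizontal axis) of each tested miRNA by list (rows, number tested in brackets), ordered by the median (black tick); red points were called, and the triangle is miR-770-5p at -4.30, drawn at the edge. miR-34a-5p at 2.54 stands to the right of every other listed miRNA, and the Dlk1-Dio3 list has the lowest median, -0.61.

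Scaling by library totals instead moved the median over all tested miRNAs from 0.02 to 0.26, so directions are relative to that shift. Relative to it, the list medians were 0.59 for miR-34 and miR-449, -0.58 for the miR-183 cluster, -0.67 for Dlk1-Dio3 and -0.50 for leukocyte miRNAs. On that scale miR-34a-5p and miR-34c-5p were called higher and 0 were lower.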

How the data were processed

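Small RNA libraries were made from 1 ug of total RNA of whole kidney, per the labels' protocols, in 4 control, 4 irradiated and 5 irradiated and drug-treated rats; p-values measure the spread between these animals. The authors deposited raw counts per small RNA feature. The submitters' processing notes name Trim Galore 0.2.5, Bowtie 1.1.1 and build rn4; the counting tool, strand handling and treatment of reads with several matches are not given in the sources used here.

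From the 460 rat mature miRNAs (category of unique mature entries), 419 passed edgeR's expression filter by group (41 did not). The test was edgeR 4.0.16's quasi-likelihood test in R 4.3.3 with TMM scaling, 1 mean per group over all 13 libraries and the contrast irradiated minus control. Benjamini-Hochberg adjustment covered all tested miRNAs, at a threshold of 0.05. Each SE given is the absolute log2 fold change divided by the square root of the test's F statistic. The biological coefficient of variation was 0.247, and 0.234 without control library 2. The levels shown are TMM-scaled CPM. On simulated counts the procedure was checked for recovery of known changes. These counts were drawn independently for each miRNA and library, with no GC trend and no shared reads, so the check does not cover those features.

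The named miRNAs are all called with or without control library 2, the 10 in each direction with the smallest p at a mean of at least 10 CPM, the 4 most abundant, the 2 with the smallest p in each of 27 lists, the miR-34 and miR-449 family, and relatives of the called ones. The members and lists were chosen with earlier results of these data known. Alternatives were other scalings and filters, DESeq2 1.42.0, limma-voom (limma 3.58.1), the 2 groups alone, the addition of other-species entries and leaving out each library; 3 more (control library 2 and irradiated library 4 left out together, a GC offset by loess with a span of 0.75, and 1 entry per complementary pair) were added after the data were seen. The drug-treated group entered no contrast. In the fits over all 13 libraries it took part in the expression filter, the TMM scaling, the GC offset and the estimate of the spread.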

Additional observations from a re-analysis of the deposited data

Results flagged for a closer look

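In 12 of 184 groups of 4 libraries, the highest or lowest library lay far from the other 3 by Dixon's test on log2 CPM; chance gives this in about 1 in 20 groups. Control library 2 was the one apart in 5. It held 244 CPM of miR-770-5p against 2.70 to 4.64 in the other controls, 2.13 CPM of miR-196c-3p against 5.01 to 5.41, and 1.06 CPM of miR-379-3p against 2.96 to 3.07. It had 0 CPM of miR-34b-5p against 4.63 to 5.79 and 0 CPM of miR-376c-3p against 2.12 to 2.83; except for miR-770-5p, these values are under its lowest detectable level of 3.19 CPM. Control library 4 was the highest control for miR-410-3p (87.9 CPM against 42.6 to 45.7), miR-188-5p (20.5 against 14.9 to 15.3) and miR-382-5p (7.55 against 5.01 to 5.32).

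Among irradiated kidneys, library 2 was low for the called miR-34c-5p (240 CPM against 311 to 323) and for miR-379-3p (1.24 against 2.06 to 2.19). Library 3 was high for miR-382-5p (5.72 against 3.20 to 3.36), and library 4 for miR-141-3p (767 against 293 to 320).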

How the results depend on the processing

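miR-34a-5p passed in every fit made. The counts of other calls moved, and the cause was not tested. DESeq2 gave 19 higher and 18 lower (7 and 9 without control library 2), and limma-voom without control library 2 gave 1 higher. The 2 groups alone gave 1 higher and 0 lower, with control library 2 and without it, as did adding other-species entries. Library totals gave 0 lower. Leaving out control library 2 and irradiated library 4 together gave 22 and 13. With 1 entry per complementary pair and no control library 2 there were 1 and 1, and the GC offset without it gave 1 higher. Leaving out 1 library at a time gave 1 to 35 higher and 0 to 25 lower. Unadjusted p-values lay under 0.05 for 93 miRNAs, and for 80 without control library 2. No paired analysis was possible because the labels number the animals in one run across the groups, so that no number is shared.

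Of 2276 log2 fold changes under the alternatives, over 91 other named miRNAs, 30 changed sign; they belong to 13 miRNAs, 9 of them to miR-667-3p, and to no called miRNA. By library totals these were miR-126a-3p (0.038), miR-23a-3p (0.066), miR-99a-5p (0.051), miR-487b-3p (0.14) and miR-667-3p (0.20). With control library 2 and irradiated library 4 out they were miR-9b-3p (-0.066), miR-487b-3p (0.027), miR-667-3p (0.16) and miR-770-5p (0.024). With the GC offset, and without control library 2 besides, they were miR-99b-3p (-0.042 and -0.033) and miR-188-5p (-0.029 and -0.051). By limma-voom, and without control library 2 besides, miR-144-3p was at -1.01 and -1.003. miR-667-3p was at 0.015 with no filter, 0.0082 with the 2 groups alone, 0.0086 with other-species entries and 0.011 with 1 entry per complementary pair. Leaving out 1 library at a time gave -0.00057 to 0.78 for miR-486, -0.089 to 1.05 for miR-144-3p, -0.016 to 0.28 for miR-9b-3p and -0.41 to 0.030 for miR-154-5p. It gave -0.46 to 0.021 for miR-381-3p, -0.16 to 0.069 for miR-487b-3p and -0.35 to 0.35 for miR-667-3p.

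Depth limits low miRNAs in control library 2, where 3 counts are 3.19 CPM.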

Other observations

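Entries named after other species lay outside the comparison, and none passed when they were fitted together with the rat miRNAs (572 tested). The smallest adjusted p among them was that of miR-4286, named after human and cattle: 2.12, 4.07, 5.36 and 3.96 CPM in control libraries 1 to 4 and 8.21, 13.4, 11.5 and 5.50 CPM in irradiated libraries 1 to 4, without overlap (log2 fold change 1.32, adjusted p = 0.0716). Others were high in control library 2 alone: the mouse entry miR-3535 was at 2949 CPM there and at 72.2 to 137 CPM in the other 3 controls.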
